A study of Mus musculus with 12 samples.

Results

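The genes described here are 10 core genes of the NF-kB pathway, read out in single tendon cells with and without tenomodulin. They are the kinase genes Ikbkb and Chuk with their scaffold Ikbkg, the transcription factor genes Rela, Nfkb1, Nfkb2 and Relb, the inhibitors Nfkbia and Tnfaip3, and the adaptor Traf3. They were taken by symbol from a table of raw counts for 55418 genes. The set was chosen on measured values, namely that the counts of Ikbkb and Traf3 lay in cells of opposite genotype. The genotype difference of these genes, and the values that follow from it, are therefore given as a description.

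The cells came from the non-injured, untreated Achilles tendons of mice on a C57BL/6 background that carried ScxGFP, a transgene in which GFP reports activity of the Scx promoter and so marks tendon-lineage cells. The knockout cells (Tnmd-/- ScxGFP+) lacked Tnmd, the gene of the tendon glycoprotein tenomodulin, in every tissue of the animal, and the control cells (WT ScxGFP+) carried Tnmd and the same reporter. Tnmd is X-linked, and in the study the WT group took in hemizygous males and both homozygous and heterozygous females, and no label says which of these a cell came from. In each genotype 6 GFP-positive cells were sequenced with Smart-Seq2 after collagenase digestion and picking with a micromanipulator, and each cell keeps the pick number it was labelled with. Since no label ties a cell to an animal, the cells of a genotype were treated as 1 sample, not as replicates, and no test between genotypes was made.

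NF-kB is a family of dimeric transcription factors that waits in the cytoplasm, bound by inhibitors of the IkB family. In the canonical arm, receptors for tumour necrosis factor, interleukin-1 or microbial products activate the IKK complex, which marks the inhibitor for degradation and frees dimers such as RelA with the Nfkb1 product. In the non-canonical arm, IKK-alpha drives the processing of the Nfkb2 product, which partners with RelB, and TRAF3 holds this arm back in resting cells by keeping its upstream kinase NIK low. Fibroblasts, those of tendon included, use the pathway to switch on cytokine, chemokine and matrix-degrading genes after injury.

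The total was 892713 to 10333351 counts per Tnmd-/- cell and 4516036 to 13613080 counts per WT cell. A gene with no count in a genotype was given a bound of 3 counts in its sum. That bound was 0.0855 CPM (counts per 1000000 counted reads) for the Tnmd-/- sum and 0.0561 CPM for the WT sum. It describes reads, and transcripts lost before sequencing are not covered. In a single cell 3 counts stood for 0.220 to 3.36 CPM. Tnmd itself gave 8 counts over the Tnmd-/- cells and 10185 over the WT cells, and only WT cell 14 held 10 or more of them. Scx, the gene behind the reporter, had 3 counts over the Tnmd-/- cells and reached 10 counts in 3 of the 6 WT cells. All 11 tendon fibroblast markers examined were counted, with a summed level of 1696 to 87463 CPM per Tnmd-/- cell and 31910 to 176923 CPM per WT cell. Of 6 immune markers, 5 were at 0 in all cells, among them Ptprc and Adgre1, and the list summed to at most 0.871 CPM in a cell. Endothelial markers (4 genes, Cdh5 and Tie1 at 0) summed to at most 30.1 CPM in a Tnmd-/- cell and 0.167 CPM in a WT cell. Mural markers (4 genes, Rgs5, Acta2 and Mcam at 0) ran up to 118 and 641 CPM, and skeletal muscle markers (3 genes, Myh4 and Ckm at 0) up to 6.72 and 0.0802 CPM. Cartilage markers (3 genes, Col2a1 at 0) ran from 0 to 1330 CPM in the Tnmd-/- and from 1.60 to 253 CPM in the WT cells, and the part of these lists in the results was not tested. The study marks 3 cells of each genotype as more degraded (Tnmd-/- cells 1, 3 and 7 and WT cells 1, 2 and 14). The mitochondrial share of counts was 51.8% in Tnmd-/- cell 3 and 1.75% to 7.30% elsewhere.

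All 10 genes had at least 20 counts over the 12 cells, the minimum applied to every gene, which 9768 genes passed. Nfkbia was counted in every cell, and each of the other genes was below 10 counts in most cells of at least 1 genotype. With 1 CPM added to both sums, 5 genes were at least 2-fold higher in the Tnmd-/- cells (Ikbkb, Nfkb1, Nfkb2, Rela and Nfkbia) and 5 at least 2-fold lower (Ikbkg, Chuk, Relb, Traf3 and Tnfaip3). With equal weight for each cell 4 were higher and 5 lower, and with DESeq2 size factors 4 and 4. Over all 9768 genes, and without such weights or factors, 35.5% were that much higher and 34.9% that much lower. The median log2 ratio was 0.38 over the 10 genes and 0.06 over all genes. At 10 counts or more, the threshold for detection here, the 10 genes were detected in 21 of 60 gene and cell pairs in either genotype (35%). A member was detected in a median of 4 cells and any of the 9768 genes in a median of 2 cells. Ikbkb, Nfkb1, Rela, Relb, Nfkbia and Traf3 were detected in at least 4 of the 12 cells, which held for 32.7% of all genes.

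**Figure D1:**
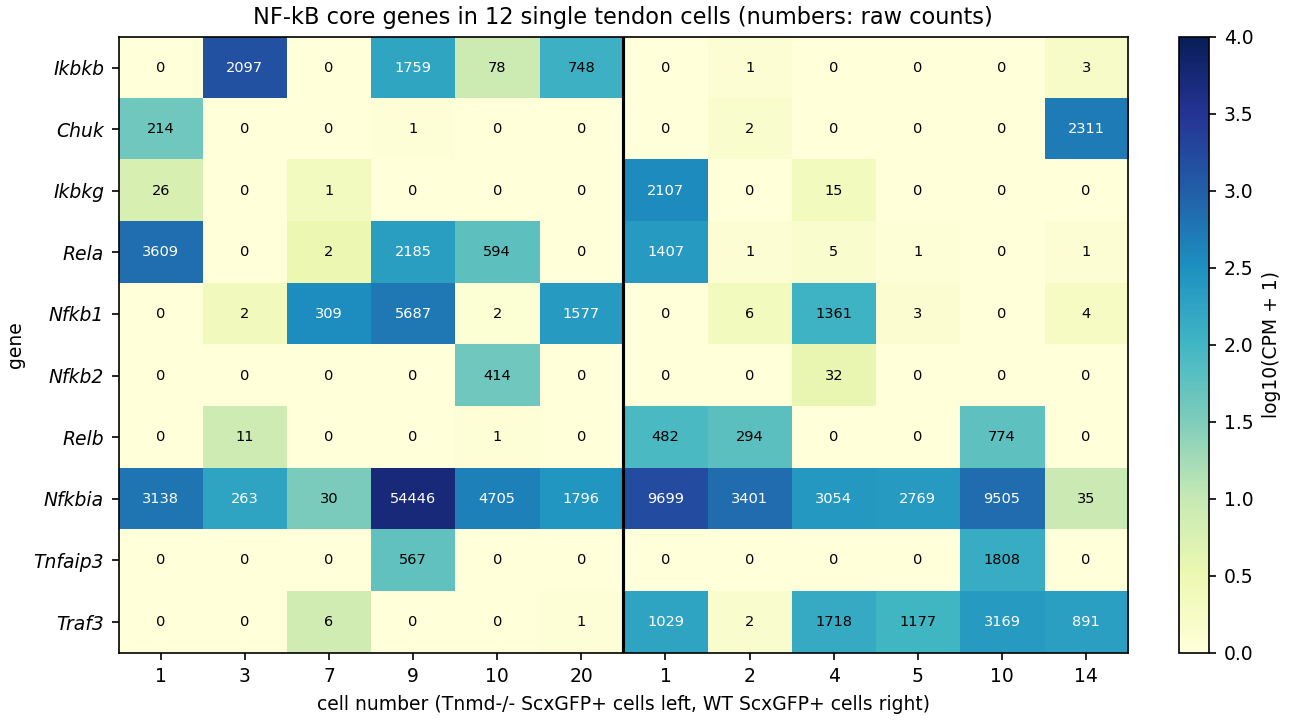
Level of the 10 NF-kB core genes in each of the 12 cells, as the colour of log10(CPM + 1), with the raw count printed in each field. Rows are genes by role, columns are the 6 Tnmd-/- cells (left of the line) and the 6 WT cells (right), and only the Nfkbia row is filled throughout.

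The capitals in the 4 sequences that follow mark where letters of the 10-base kappaB consensus, the DNA element that NF-kB dimers bind, stand near the start of a member gene. Each was found within 250 bases before to 50 bases after an annotated start, and 1 is shown for each gene with a match, for Tnfaip3 and Nfkb2 out of more than 1 and picked as an example, to show the element that the pathway's factors bind in genes of the pathway itself. RefSeq windows (GRCm38.p6) were at hand for 7 of the 10 genes, 13 windows in all. No window was used here for Ikbkb, Nfkb1 and Relb. Those of Nfkb2, Nfkbia, Traf3 and Tnfaip3 held at least 1 match on either strand, in 6 windows.
Nfkbia (chr12:55492657-55492686, minus strand): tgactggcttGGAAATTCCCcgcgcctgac
Tnfaip3 (chr10:19015403-19015432, minus strand): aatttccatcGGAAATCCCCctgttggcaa
Nfkb2 (chr19:46304688-46304717, plus strand): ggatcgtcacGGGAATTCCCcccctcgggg
Traf3 (chr12:111166350-111166379, plus strand): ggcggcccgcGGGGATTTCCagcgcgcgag
Counted from the annotated start, the matches shown lie at -29 to -20 in Nfkbia, -12 to -3 in Tnfaip3, -39 to -30 in Nfkb2 and -10 to -1 in Traf3. The Nfkb2 match reads the same on both strands and overlaps another match that begins 1 base further on. Of the 32851 windows of that length examined over the genome, 8.46% held at least 1 match. A match describes letters only, and binding was not measured in these cells.

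Among the IKK genes, Ikbkb was counted on the Tnmd-/- side, and Chuk and Ikbkg had higher sums on the WT side, each from very few cells. Ikbkb (ENSMUSG00000031537, chromosome 8), which encodes IKK-beta, the main kinase of the canonical arm, gave 4682 counts over the Tnmd-/- cells and 4 over the WT cells. Over the Tnmd-/- cells it ranged from 0 to 1394 CPM with a median of 59.3 CPM. Cell 3 stood highest with 2097 counts, then cell 9 with 1759, cell 20 with 748 and cell 10 with 78, and cells 1 and 7 held none. In the WT cells the highest value was 0.664 CPM, 3 counts in cell 14, and 4 cells held none, so the genotypes overlapped at 0 counts. The summed levels were 133 and 0.0749 CPM, a log2 ratio of 10.80 (95% counting interval 9.44 to 12.68). Without Tnmd-/- cell 3, in which mitochondrial genes were high, the log2 ratio was 10.01.

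Chuk (ENSMUSG00000025199, chromosome 19) encodes IKK-alpha, the kinase that the non-canonical arm uses. It was detected in 1 cell of each genotype, with 214 counts (40.3 CPM) in Tnmd-/- cell 1 and 2311 counts (512 CPM) in WT cell 14. Outside these cells no cell held more than 2 counts. The pooled log2 ratio of -2.82 (interval -3.03 to -2.62) thus compared 1 cell with 1 cell, and it became 7.23 without WT cell 14. Other scalings gave -3.66 (equal weight for each cell), -4.14 (TMM) and -5.66 (DESeq2 size factors). Both of these cells belong to the more degraded level.

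Ikbkg (ENSMUSG00000004221, X chromosome) encodes NEMO, the regulatory scaffold that joins the kinases to upstream signals. Its 2122 WT counts came almost wholly from WT cell 1, which held 2107 (352 CPM), with 15 in cell 4 and none in the other WT cells. On the Tnmd-/- side 26 of 27 counts lay in cell 1. The genotypes overlapped, and the log2 ratio of -5.69 (interval -6.29 to -5.14) turned to 1.28 without WT cell 1. Of the exon bases of Ikbkg, 5.15% also belong to G6pdx on the opposite strand, which had 2 counts in WT cell 1.

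None of the 12 cells had 10 counts of all 3 IKK genes. At least 1 of the 3 was detected in 5 Tnmd-/- and 3 WT cells, and only Tnmd-/- cell 1 had a pair, Chuk with Ikbkg. At 1 count, again no cell had all 3, and at least 1 of the 3 was counted in 6 Tnmd-/- and 4 WT cells, with Chuk and Ikbkb together in Tnmd-/- cell 9 and WT cells 2 and 14.

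The Rel family genes lay on both sides. Rela, Nfkb1 and Nfkb2 had higher sums in the Tnmd-/- cells, Relb had a higher sum in the WT cells, and the cells that carried them differed from gene to gene. Rela (ENSMUSG00000024927, chromosome 19), the subunit with the strong transactivation domain in the canonical dimer, ranged from 0 to 680 CPM in the Tnmd-/- cells with a median of 29.9 CPM. It was detected in Tnmd-/- cells 1 (3609 counts), 9 (2185) and 10 (594). Among the WT cells only cell 1 was high, with 1407 counts (235 CPM), and the others held 0 to 5 counts. The summed levels of 182 and 26.5 CPM gave a log2 ratio of 2.78 (interval 2.70 to 2.87), which became 1.82 when Tnmd-/- cell 1 was left out and 10.08 when WT cell 1 was. The direction was the same in both cases, and the genotypes overlapped.

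Nfkb1 (ENSMUSG00000028163, chromosome 3), whose product is cut to the DNA-binding partner of RelA, was detected in Tnmd-/- cells 7, 9 and 20 and in WT cell 4. The counts were 309, 5687 and 1577 in the first 3 and 1361 in WT cell 4. In CPM, cell 7, the shallowest library, stood at 346, cell 9 at 550, cell 20 at 234 and WT cell 4 at 109. All other cells held 6 counts or fewer. The log2 ratio was 3.07 (interval 2.99 to 3.15), between 1.57 without Tnmd-/- cell 9 and 9.41 without WT cell 4. Rela and Nfkb1 were both detected in a single cell, Tnmd-/- cell 9, and both had at least 1 count in 7 of the 12 cells.

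Nfkb2 (ENSMUSG00000025225, chromosome 19), the precursor subunit of the non-canonical arm, was the most sparsely counted of the Rel family genes among the members. All 414 Tnmd-/- counts lay in cell 10 (40.2 CPM) and all 32 WT counts in cell 4 (2.57 CPM). The log2 ratio of 4.30 (interval 3.78 to 4.87) therefore set 1 cell against 1 cell, and without Tnmd-/- cell 10 it is a bound in the other direction, -2.31 or lower. Of its exon bases 18.1% also belong to genes on the opposite strand, and 1 of these, Psd, had 574 counts in Tnmd-/- cell 10. Reads that mark no strand cannot tell such genes apart in the shared bases.

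Relb (ENSMUSG00000002983, chromosome 7) encodes the partner of the Nfkb2 product. It was detected in WT cells 1 (482 counts), 2 (294) and 10 (774), at 80.4, 60.9 and 56.9 CPM, and was at 0 in the other WT cells. In the Tnmd-/- cells it had 11 counts in cell 3 and 1 count in cell 10. The 3 WT cells stood above all Tnmd-/- cells, and the remaining WT cells overlapped with them. The log2 ratio was -6.41 (interval -7.36 to -5.60), with values from -9.93 to -5.83 when 1 cell was left out and -3.62 with TMM factors. In no cell were Nfkb2 and Relb both detected.

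**Figure D2:**
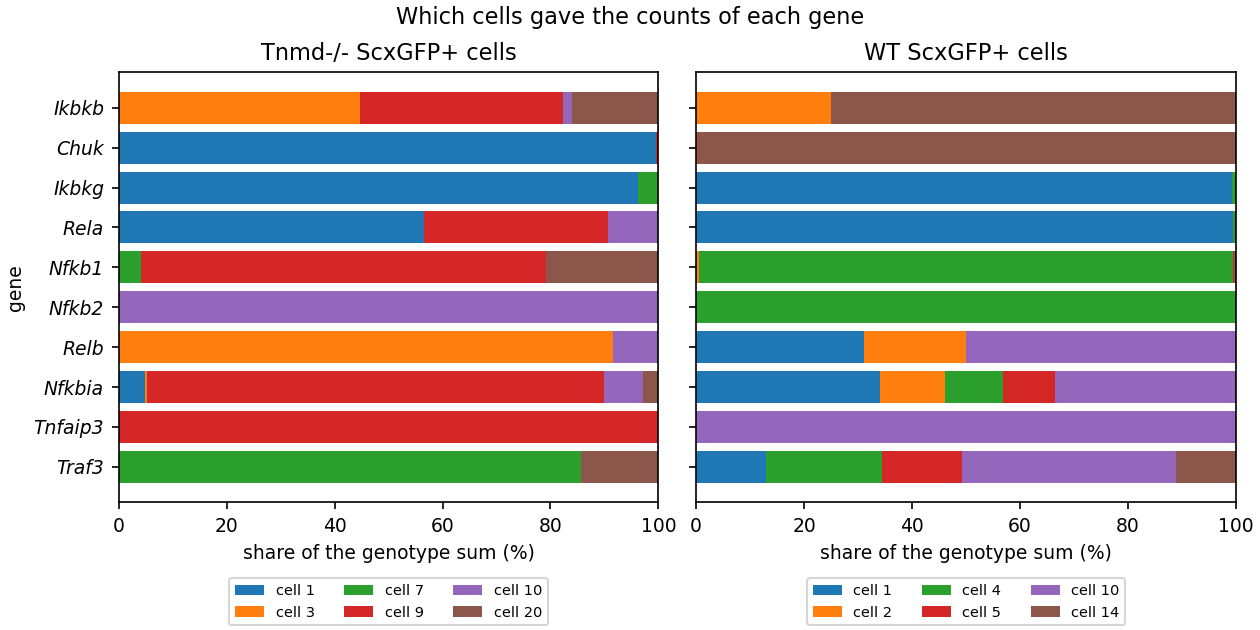
Share of each gene's summed counts that came from each cell, in percent of the genotype sum, for the Tnmd-/- cells (left) and the WT cells (right). In the Tnmd-/- cells 9 of the 10 genes, and in the WT cells 7 of the 10, drew more than 50% of the sum from 1 cell.

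Nfkbia (ENSMUSG00000021025, chromosome 12) encodes IkB-alpha, the inhibitor that holds RelA dimers in the cytoplasm and is itself a textbook target of NF-kB. It was the member with the most counts, with 64378 over the knockout and 28463 over the WT cells, which was 76.4% and 60.5% of all counts of the 10 genes. It was detected in all 12 cells, which held for 2.18% of all genes. In the Tnmd-/- cells the level ran from 33.6 CPM in cell 7 through a median of 361 CPM to 5269 CPM in cell 9. In the WT cells it ran from 7.75 CPM in cell 14 through a median of 472 CPM to 1619 CPM in cell 1. Apart from the high cell 9 the Tnmd-/- values lay within the range of the WT values. The summed log2 ratio of 1.78 (interval 1.76 to 1.80) rested on that cell, which gave 84.6% of the Tnmd-/- counts: without it the log2 ratio was -0.41. It was 2.47 among the less degraded cells and -0.94 among the more degraded cells, and it fell short of 2-fold with equal weight for each cell (0.95) and with DESeq2 size factors (0.92).

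Tnfaip3 (ENSMUSG00000019850, chromosome 10) encodes a ubiquitin-editing enzyme that ends signalling from the receptors to IKK, and it too is a target of the pathway. It was counted in 1 cell of each genotype and was at 0 in the other 10. Tnmd-/- cell 9 held 567 counts (54.9 CPM) and WT cell 10 held 1808 counts (133 CPM). The log2 ratio was -1.07 (interval -1.20 to -0.93), and without WT cell 10 it was 7.74 or higher. Tnmd-/- cell 9 was also the highest of all cells for Nfkbia, and WT cell 10 was the third of the WT cells for it, at 698 CPM. The matches printed above for Nfkbia and Tnfaip3 both lie close before the start, while Tnfaip3 was detected in 2 of the 12 cells that held Nfkbia.

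Traf3 (ENSMUSG00000021277, chromosome 12), the adaptor that restrains the non-canonical arm and also serves interferon responses, showed the mirror image of Ikbkb. It was detected in 5 of the 6 WT cells, with 891 to 3169 counts each, and cell 2 held 2 counts. The WT level ran from 0.414 CPM through a median of 155 CPM to 233 CPM. Among the Tnmd-/- cells there were 6 counts in cell 7 (6.72 CPM), 1 in cell 20 and none in the other 4. The 5 WT cells were all above every Tnmd-/- cell, and WT cell 2 lay within their range. The summed levels were 0.199 and 149 CPM, a log2 ratio of -9.55 (interval -10.86 to -8.51). Of the 7 Tnmd-/- counts 6 lay in cell 7, the shallowest library, and the ratio was -6.93 with equal weight for each cell, -4.65 with TMM factors and -12.32 without cell 7.

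Ikbkb and Traf3 were the members detected in at least 4 cells of one genotype and in none of the other. In either direction 73 of the 9768 genes, or 0.747%, had this pattern. It needs 10 counts in at least 4 cells, which 3191 of the 9768 genes had. The contrast of Ikbkb with Traf3 is the one on which the set was chosen, so the values that follow only describe it further. In no cell were both detected, although both had at least 1 count in Tnmd-/- cell 20 and WT cells 2 and 14. After every cell was thinned to the 892713 counts of the shallowest, Ikbkb was detected in 3 Tnmd-/- cells and no WT cell, and Traf3 in 5 WT cells and no Tnmd-/- cell. By degradation level, and as a description, the log2 ratio of Ikbkb was 10.03 among the more degraded cells, where all Tnmd-/- counts lay in cell 3, and 10.23 or higher among the less degraded cells, where no WT cell held a count. That of Traf3 was -7.33 among the more degraded and -12.09 among the less degraded cells.

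**Figure D3:**
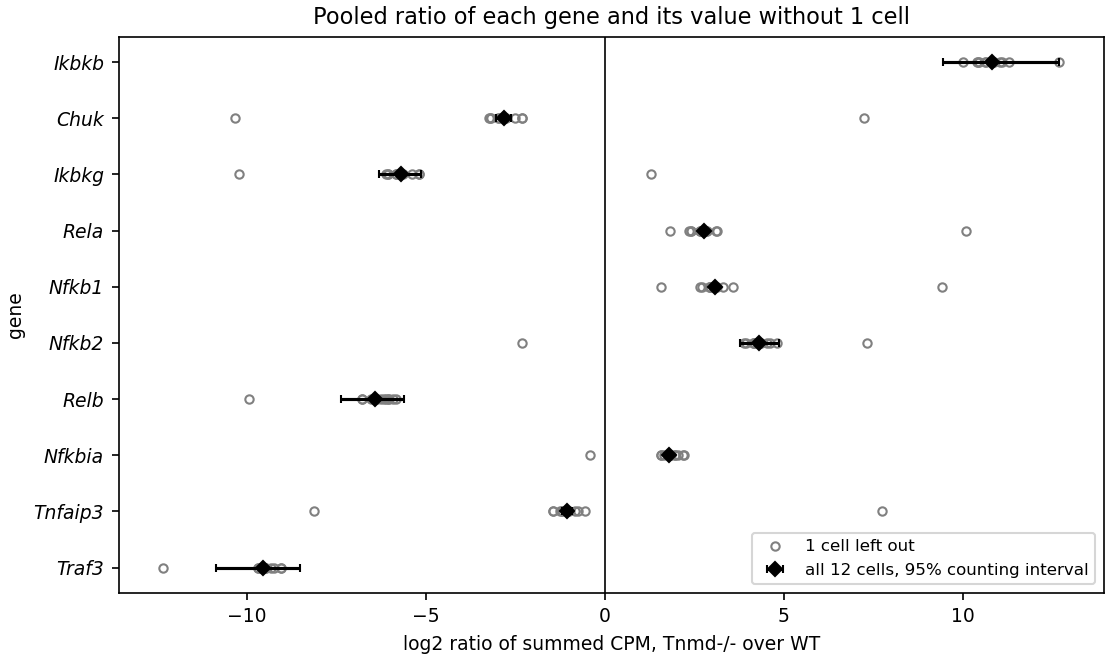
Log2 ratio of the summed CPM, Tnmd-/- over WT, for each of the 10 genes over all 12 cells (black, bars are 95% counting intervals) and with 1 cell left out at a time (open circles, bounds included where a genotype was then at 0). Ikbkb, Rela, Nfkb1, Relb and Traf3 stay on their side of 0, and the circles of the other 5 genes lie on both sides.

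The order of the levels was compared per kilobase of exon. Nfkbia led the Tnmd-/- sum with 1140 CPM per kb, followed by Rela with 59.3, Nfkb1 with 17.9 and Ikbkb with 6.99. Nfkb2 (2.57), Tnfaip3 (2.24) and Chuk (1.20) came next, and Ikbkg (0.0949), Relb (0.0880) and Traf3 (0.0271) closed the order. Nfkbia also led in the WT sum, with 331 CPM per kb. There it was followed by Traf3 with 20.3, Rela with 8.62, Chuk with 8.51, Relb with 7.47, Ikbkg with 4.90, Tnfaip3 with 4.68 and Nfkb1 with 2.13. Nfkb2 (0.131) and Ikbkb (0.00392) closed the WT order. For every pair of neighbours in either order the ranges over single cells overlapped. Nfkbia was the highest of the 10 per length in 10 of the 12 cells. The exceptions were Tnmd-/- cell 7, where Nfkb1 stood at 28.7 and Nfkbia at 20.9 CPM per kb, and WT cell 14, where Chuk stood at 101 and Nfkbia at 4.81.

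The cells also differed in which members they held together. Tnmd-/- cell 9 was detected for 5 members (Ikbkb, Rela, Nfkb1, Nfkbia and Tnfaip3), which all belong to the canonical arm or its feedback. WT cell 1 was also detected for 5 (Ikbkg, Rela, Relb, Nfkbia and Traf3), and WT cell 4 for Ikbkg, Nfkb1, Nfkb2, Nfkbia and Traf3. The lowest number was 2 members, in Tnmd-/- cell 7 and WT cells 2 and 5. Of all genes with at least 20 counts, 32.0% were detected in Tnmd-/- cell 9, 26.1% in WT cell 1 and 36.8% in WT cell 4, beside 50% of the members. The shares were 14.0% in Tnmd-/- cell 7, 21.7% in WT cell 2 and 36.2% in WT cell 5, beside 20% of the members.

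By Pearson correlation of log2(CPM + 1) over the 12 cells, among 3191 genes with 10 counts in at least 4 cells, the genes with the pattern most like Ikbkb were Foxn2 (r = 0.87), Kcnma1 (0.86) and Dynll2 (0.85). Those most like Traf3 were Fmr1 (0.96), Fxyd6 (0.84) and Pno1 (0.84). Fmr1 had 44 counts over the Tnmd-/- and 6260 over the WT cells and, like Traf3, was detected in 5 WT cells. By Spearman correlation 0 of the 3 genes named for Ikbkb and 2 of the 3 for Traf3 were again among the first 3. Among the other members the correlation with Ikbkb ran from -0.61 for Traf3, the pair on which the set was chosen, to 0.32 for Nfkb1. The points share 12 libraries, 2 genotypes and many zeros, so these values are a description.

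Of 101 other genes of the pathway, listed by role, 52 reached 20 counts and 45 had no count in any cell. Among the 52, 16 (30.8%) were at least 2-fold higher and 20 (38.5%) at least 2-fold lower in the Tnmd-/- cells, beside the shares of 35.5% and 34.9% over all genes. The median log2 ratio was -0.04, also with the 10 genes that were at 0 in 1 genotype set at their bound. Of the 36 genes past 2-fold, 12 had 10 counts in 1 cell only.

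**Figure D4:**
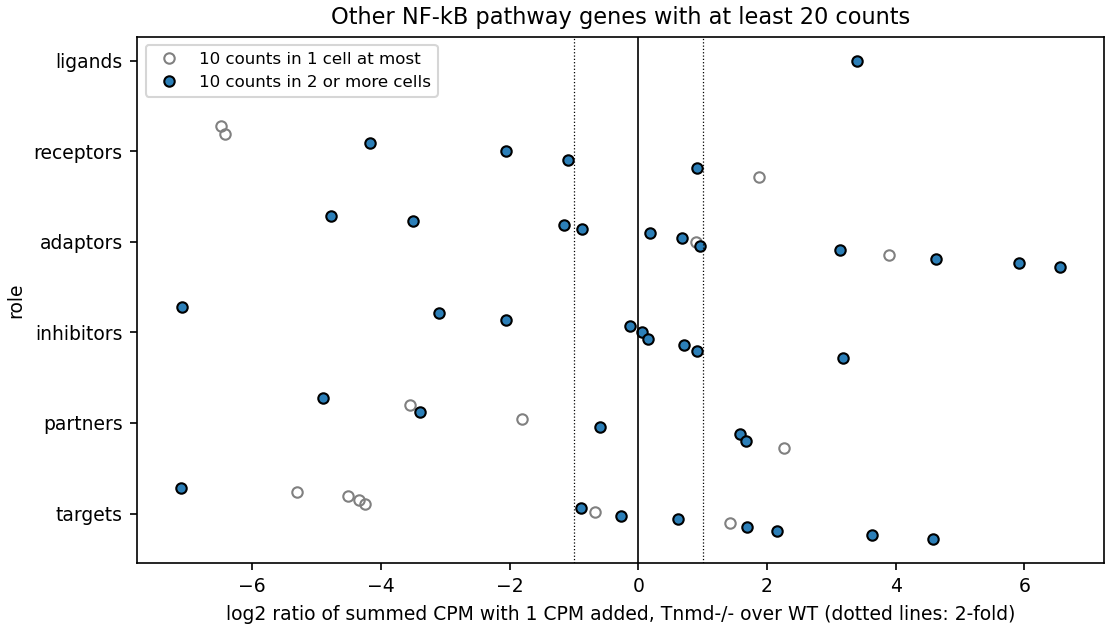
Log2 ratio of the summed CPM with 1 CPM added, Tnmd-/- over WT, for the 52 other pathway genes with at least 20 counts, by role. Filled points reached 10 counts in 2 or more cells, open points in 1 cell at most, and both directions occur in every role that has more than 1 gene.

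Ligands were nearly absent: 9 of 11 had no count, Tnf among them, and only Il33, an alarmin of the interleukin-1 family, passed the minimum. Its 14153 Tnmd-/- counts came to over 99% from cell 1 and its 1994 WT counts from cell 4. Of 7 receptors with 20 counts, 5 were lower and 1 higher in the Tnmd-/- cells, beside shares of 34.9% and 35.5% over all genes. The receptors past 2-fold that are not named here each reached 10 counts in 1 cell only. Tnfrsf1a, the main receptor of tumour necrosis factor, was detected in 1 Tnmd-/- and 3 WT cells, at summed levels of 3.48 and 79.2 CPM. Of its WT counts 84.6% lay in cell 5. Tlr2, a receptor for bacterial lipoproteins, was likewise detected in 1 and 3 cells, at 85.2 and 357 CPM. Of the WT counts of Tlr2, 66.2% lay in cell 4. Tlr4, the receptor for endotoxin, stood at 3.65 and 8.93 CPM.

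Among adaptors, ubiquitin ligases and upstream kinases, 13 of 28 reached 20 counts, 5 higher and 3 lower. Over all genes the shares were 35.5% higher and 34.9% lower. Rbck1, a subunit of the linear ubiquitin ligase complex, gave 3622 counts in the Tnmd-/- cells, spread over 3 of them, and 6 in the WT cells (log2 ratio 9.84, interval 8.72 to 11.29). Tab2, which brings the kinase TAK1 to ubiquitin chains, was detected in 3 Tnmd-/- and 2 WT cells at 51.0 and 1.10 CPM. Myd88, the adaptor of Toll-like and interleukin-1 receptors, had 2126 counts against 1, with 99.0% of them in Tnmd-/- cell 10 (log2 ratio 11.66, interval 9.18 to 16.97). On the lower side, Birc3, a ubiquitin ligase that works with TRAF3, had no count in any knockout cell. It had 1416 counts over the WT cells, 95.5% of them in cell 2. Map3k7, the gene of TAK1, was detected in 1 cell of each genotype and Tirap in 1 and 2 cells.

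Of 14 further inhibitors 9 reached 20 counts, 1 higher, 3 lower and 5 within 2-fold, beside 35.5% higher and 34.9% lower over all genes. Nfkbiz, a nuclear IkB protein, was the higher gene, with 202 and 21.5 CPM and 4 and 2 cells. Of its Tnmd-/- counts 78.5% lay in cell 7, the shallowest library. Tnip2, a binding partner of the Tnfaip3 product, had 8 counts over the knockout and 8847 over the WT cells, 3 of which passed 10 counts (log2 ratio -9.50, interval -10.72 to -8.52). Nfkbib, a close relative of Nfkbia, stood at 2.88 and 15.1 CPM, a log2 ratio of -2.39, with 99.0% of its Tnmd-/- counts in cell 20. The summed ratio of Nfkbia (1.78) was opposite in sign, but without Tnmd-/- cell 9 it was -0.41. Commd1 was detected in 1 cell of each genotype.

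All 8 genes of the remaining Rel member and of nuclear or degradation partners reached 20 counts, 3 higher and 4 lower. The shares over all genes were 35.5% and 34.9%. The acetyltransferase genes Crebbp and Ep300, coactivators of RelA, were among the most widely detected, in 6 and 3 cells (log2 ratio 1.68) and in 4 and 3 cells (1.60). WT cell 4 held 88.4% of the WT counts of Crebbp and 73.4% of those of Ep300. On the Tnmd-/- side 57.5% of the Crebbp counts lay in cell 10 and 75.8% of the Ep300 counts in cell 9. Cul1, the cullin of the ligase that destroys IkB-alpha, was detected in 4 Tnmd-/- and 3 WT cells at 10.7 and 122 CPM. Fbxw11, a receptor subunit of the same ligase, had 2 and 1634 counts (log2 ratio -9.07, interval -12.11 to -7.21), 96.4% of the latter in WT cell 5.

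Of 28 target genes 14 had no count, and of the 14 that reached 20 counts 5 were higher, 5 lower and 4 within 2-fold. Beside this, 35.5% of all genes were higher and 34.9% lower. Cxcl1, a neutrophil chemokine, had 19 counts in the Tnmd-/- cells and 11266 in 3 WT cells (log2 ratio -8.60, interval -9.34 to -7.96). C3, the central complement component, went the other way, with 346 and 26.8 CPM and detection in 5 Tnmd-/- cells and 1 WT cell. Irf1, an interferon regulatory factor, had 801 counts in the Tnmd-/- cells, 84.9% of them in cell 10, and none in the WT cells, a log2 ratio of at least 8.67. Lcn2, an iron-trapping acute phase protein, was detected in 2 and 1 cells at 58.7 and 12.4 CPM.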

How the data were processed

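Raw counts per gene and cell were used as deposited. The authors trimmed the reads, removed those not exclusive to mouse, aligned them to GRCm38 with STAR (2.5.1b, per the labels) and counted uniquely mapped exonic reads with featureCounts of Subread 2.0.0. The strand of counting is not given in the sources used here, and the reads carry no molecular identifiers. The deposited table also holds the summed exon length of each gene, in bases.

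For each genotype the 6 cells were pooled by adding their counts, and sums were scaled to CPM. The study tested the cells with DESeq2 and edgeR. Because no animal is named for a cell, no such test was run here, and these tools (DESeq2 1.42.0, edgeR 4.0.16) gave size and TMM factors only. Intervals are exact Poisson or Clopper-Pearson intervals at 95% and cover the counting error of reads only. They treat each read as independent, and without molecular identifiers copies made by amplification are not told apart. The counting error of transcripts is therefore not covered. A genotype at 0 counts gave a bound against 3 counts in its sum, and a gene with at most 3 counts in both sums got no ratio. Comparisons across genes used genes with at least 20 counts over the 12 cells and 1 CPM added to both sums. The code for the pooled ratio and its interval was run on simulated Poisson counts. These had the same expected share of reads in every cell of a genotype, so spread between cells was not covered. Gene positions came from GENCODE M21, whose exon lengths matched those of the table for 99.9% of symbols. Promoter windows were RefSeq sequences (GRCm38.p6) searched on both strands for the kappaB consensus. The search left out 1 chromosome.

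All 10 members are named, and of 101 other pathway genes at most 3 per role and direction, by size of ratio among those with 20 counts that were past 2-fold and detected in at least 2 cells. Added to these are the 3 genes most correlated with Ikbkb and with Traf3, Tnmd and Scx. Psd and G6pdx are named for their overlap with members and were chosen after their values were seen. The members and lists were chosen with earlier results of these data known. Alternatives were equal weights, TMM and DESeq2 factors, totals without mitochondrial and the top 50 genes, each degradation level, each cell left out, another added CPM, minimum or fold, other detection thresholds, thinning, and Spearman correlation. Analyses ran in Python 3.11.15 and R 4.3.3.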

Additional observations from a re-analysis of the deposited data

Results flagged for a closer look

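In 16 of the 20 groups of 6 cells (10 genes in each genotype), the highest cell stood apart from the next by more of the range of its group than Dixon's 95% limit for 6 values. Chance flags about 1 in 20 groups of normally spread values, and values with many zeros are not spread so. The cells that stood apart among the IKK genes were Tnmd-/- cell 3 (1394 CPM) and WT cell 14 (0.664 CPM, 3 counts) for Ikbkb, Tnmd-/- cell 1 (40.3 CPM) and WT cell 14 (512 CPM) for Chuk, and Tnmd-/- cell 1 (4.90 CPM) and WT cell 1 (352 CPM) for Ikbkg. Among the Rel genes they were Tnmd-/- cell 1 (680 CPM) and WT cell 1 (235 CPM) for Rela, WT cell 4 (109 CPM) for Nfkb1, Tnmd-/- cell 10 (40.2 CPM) and WT cell 4 (2.57 CPM) for Nfkb2, and Tnmd-/- cell 3 (7.31 CPM) for Relb. Among the inhibitors they were Tnmd-/- cell 9 for Nfkbia (5269 CPM) and Tnfaip3 (54.9 CPM) and WT cell 10 (133 CPM) for Tnfaip3. For Traf3 it was Tnmd-/- cell 7, with 6.72 CPM from 6 counts. The groups in which no cell stood so far apart were Nfkb1 in the Tnmd-/- cells and Relb, Nfkbia and Traf3 in the WT cells.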

How the results depend on the processing

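Of 177 alternative values of the members' pooled log2 ratios, 171 kept the direction and 6 reversed. Leaving out a cell with no count of a gene changes only the totals, so the 171 are not a measure of stability. The reversals were Ikbkg at 1.28 without WT cell 1, Chuk at 7.23 without WT cell 14, Nfkb2 at -2.31 (a bound) without Tnmd-/- cell 10, Tnfaip3 at 7.74 (a bound) without WT cell 10, and Nfkbia at -0.41 without Tnmd-/- cell 9 and -0.94 among the more degraded cells. Ikbkb, Nfkb1, Rela, Relb and Traf3 reversed under no alternative run. For Ikbkb and Traf3 this follows from the choice of the set, made because their counts lay in cells of opposite genotype. With 1 cell left out at a time the values ran from -10.21 to 1.28 for Ikbkg, -10.33 to 7.23 for Chuk, -2.31 to 7.33 for Nfkb2, -0.41 to 2.21 for Nfkbia, -8.13 to 7.74 for Tnfaip3 and -12.32 to -9.05 for Traf3. Traf3 stood at -6.93 with equal weights, -4.65 with TMM factors, -7.47 with DESeq2 size factors, -12.09 among the less degraded and -7.33 among the more degraded cells. The members' median of 0.38 was -0.12 with equal weights, -0.22 with TMM factors, -0.029 with DESeq2 size factors, 0.34 without mitochondrial and top genes in the totals, 0.35 with 5 CPM added, 2.66 among the less degraded and -1.67 among the more degraded cells, and -1.30 (without Tnmd-/- cell 9) to 2.14 (without WT cell 14) with 1 cell left out. The median of all genes, 0.06, was -0.22 with DESeq2 size factors and 0.29 among the more degraded cells. Members past 2-fold numbered 3 higher among the more degraded and 3 lower among the less degraded cells, in each case with fewer cells counted. Of the other pathway genes 8 were lower when only the more degraded cells were taken, and 13 (without WT cell 4) to 22 (without Tnmd-/- cell 1) with 1 cell left out. For these settings the share of all genes past 2-fold was not taken, so a change over the whole table cannot be told apart. At 1 count for detection, 32 WT gene and cell pairs were detected in place of 21. The cause of a shift was not tested. No paired analysis was possible because no result comes from a test and cell numbers only name picked cells. Depth limits what a zero means: 3 counts were 3.36 CPM in Tnmd-/- cell 7 and 0.220 CPM in WT cell 10.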
